A study of Mus musculus with 12 samples.

Results

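The hnRNP and RBM genes encode RNA-binding proteins, and here they are followed as messenger RNA in the left ventricle of the mouse. They were chosen by name: every gene of the deposited table whose symbol starts with Hnrnp, or with Rbm and a digit, leaving out Rbm3. The rule finds 56 of the 17052 genes, 20 with an Hnrnp name and 36 with an Rbm name, and uses no measured value. Of these, 51 reached 1 FPKM (fragments per kilobase of transcript, scaled to the mapped fragments of the library) in at least 3 of the 12 libraries and were tested: all 20 Hnrnp genes and 31 of the 36 Rbm genes. The other 5 (Rbm41, Rbm47, Rbm11, Rbm46 and Rbm44) lay too low for the test and are described by their values.

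The tissue came from 12 C57BL/6 mice, 3 in each of 4 groups, with 1 library per mouse. At 8 weeks of age the mice had sham surgery or transverse aortic constriction (TAC), in which a ligating clip on the aortic arch makes the left ventricle pump against raised pressure. From then to sampling at 12 weeks they received oral pimobendan at 1 mg/kg/day for 4 weeks, or were controls without it. Pimobendan is a calcium sensitizer and phosphodiesterase 3 inhibitor given in heart failure, and the groups are called TAC+pimobendan and TAC+control after constriction, and Sham+pimobendan and Sham+control after sham surgery.

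Heterogeneous nuclear ribonucleoproteins (hnRNPs) coat newly made transcripts and set how they are spliced, exported, stabilised and translated. RBM proteins share the RNA recognition motif and little else: some are muscle splicing regulators, others belong to the spliceosome, the exon junction complex or the nuclear RNA decay machinery. In heart muscle the best known is RBM20, which represses inclusion of exons of titin, the giant spring of the sarcomere, and whose mutations cause dilated cardiomyopathy. The values are gene totals, so a change of splicing within a gene is not visible in them.

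Library facts that bear on these genes are few. The table holds no counts, so sequencing depth cannot be given; the FPKM of a library added up to 593203 to 643478. The 10 cardiomyocyte markers were all present, with a summed level of 60635 to 75483 FPKM, while 7 T and B cell markers summed to at most 2.63 FPKM and 4 adipocyte markers to at most 0.90 FPKM. In bulk tissue, fewer cells of a type and less RNA per cell cannot be told apart.

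Mean levels of the 51 tested genes ran from 1.24 to 121 FPKM, and muscle splicing regulators stood among the most abundant. FPKM is a level per transcript length, so genes can be set side by side. Rbm38, a close relative of the muscle regulator Rbm24 that controls the stability and splicing of its target messages, had the highest mean over the 12 mice, at 121 FPKM. It was followed by Hnrnpa2b1 at 99.9 FPKM, a splicing repressor that also sorts small RNAs, and by Hnrnpk, a binder of cytosine-rich RNA, at 97.5 FPKM. Hnrnpl, which binds CA repeats, had 71.4 FPKM. Rbm24, which the heart needs to build its sarcomeres, had 70.1 FPKM. The G-run binder Hnrnpf at 69.7 FPKM, the uridine-tract binder Hnrnpc at 68.3 FPKM, Hnrnpab at 66.9 FPKM and the splicing silencer Hnrnpa1 at 53.5 FPKM completed the 9 genes above Rbm20. Rbm20 ranked 10 of 51 with 43.0 FPKM.

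**Figure D1:**
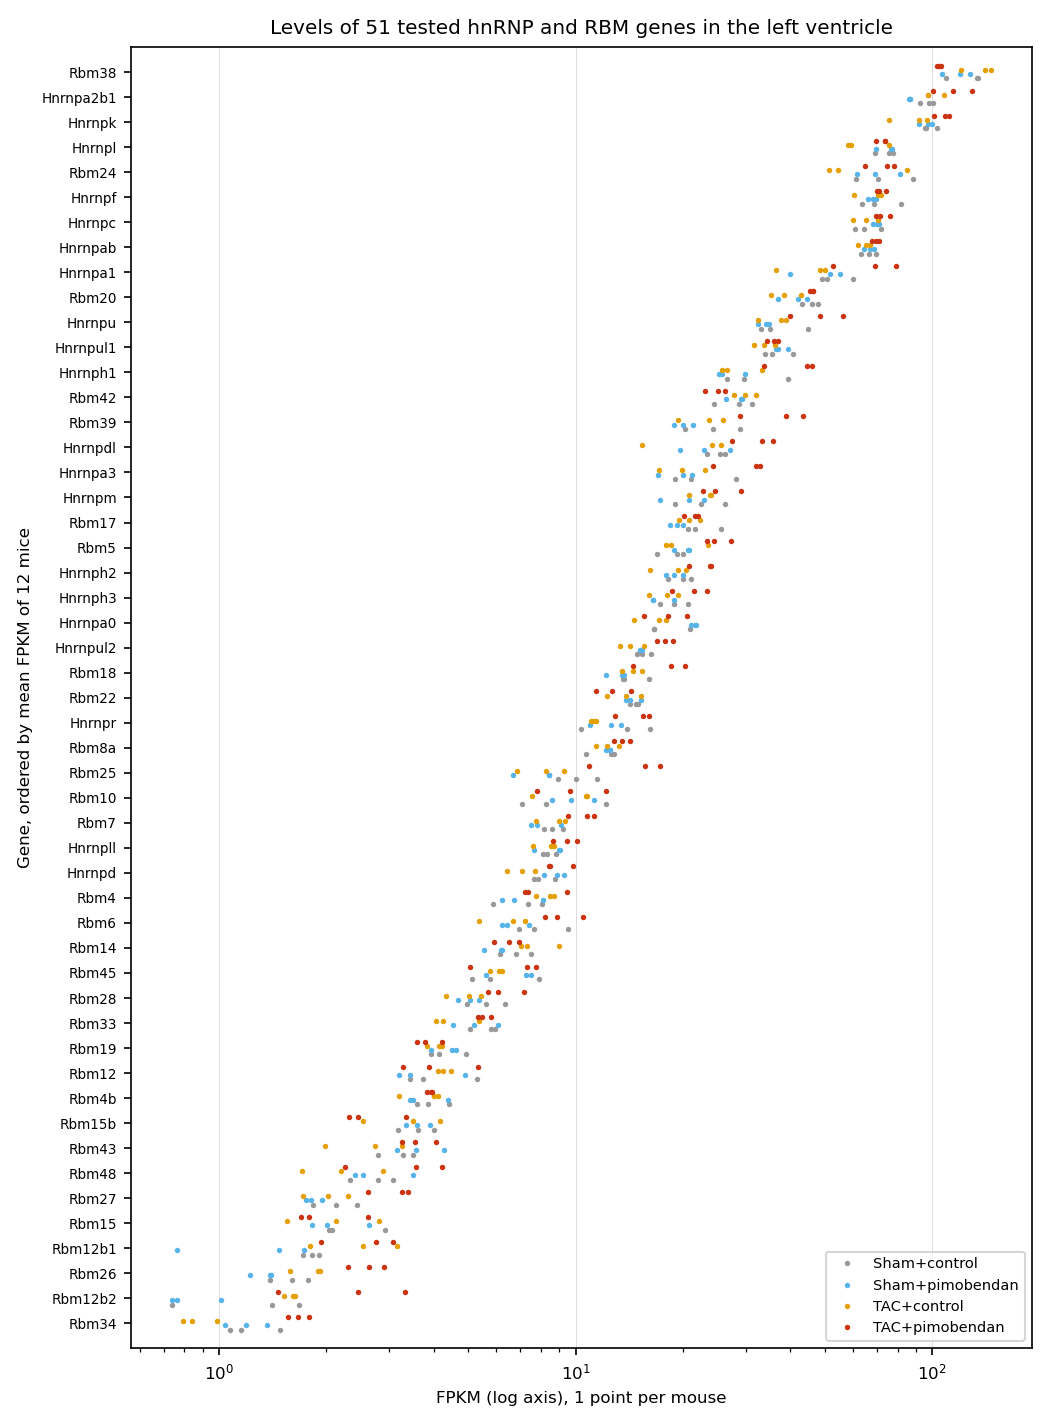
FPKM (log axis) of the 51 tested hnRNP and RBM genes, 1 point per mouse and coloured by group, ordered by the mean of the 12 mice. Rbm38, Hnrnpa2b1 and Hnrnpk lie near 100 FPKM at the top and Rbm34 near 1 FPKM at the bottom, and within most genes the points of the 4 groups lie close together.

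Neighbours in this order were not all separate. The 4 genes Rbm24, Hnrnpf, Hnrnpc and Hnrnpab had means within 66.9 to 70.1 FPKM, while single mice ran from 51.3 to 88.2 FPKM for Rbm24 and from 60.0 to 76.1 FPKM for Hnrnpc, so their order is within the spread of the mice. Hnrnpk and Hnrnpa2b1 overlapped as well, with 75.9 to 112 FPKM and 86.2 to 130 FPKM. Spread within groups also differed between genes. The pooled standard deviation of log2(FPKM + 1) was 0.053 for Hnrnpab, the smallest, and 0.28 for Rbm10, the largest.

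Subunits of general machines lay lower than the muscle regulators. Rbm17, which helps recognise the acceptor splice site, had a mean of 21 FPKM, Rbm22, a part of the catalytic spliceosome, 13.9 FPKM and Rbm8a, a core protein of the exon junction complex, 12.6 FPKM. Rbm5, Rbm6 and Rbm10, related splicing regulators of cell death genes, had means of 21, 7.58 and 9.64 FPKM. The lowest tested genes were Rbm15, which guides methylation of adenosine in messenger RNA, at 2.17 FPKM, Rbm12b1 at 2.06 FPKM, Rbm26, which works with the nuclear exosome, at 1.83 FPKM, Rbm12b2 at 1.53 FPKM and Rbm34 at 1.24 FPKM.

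The 5 untested genes are known mostly from other tissues or other introns. Rbm41, a factor for minor introns, was the only one of them to pass 1 FPKM in any mouse. It had 0.61, 1.21 and 1.11 FPKM in TAC+pimobendan and 0.23, 0.48 and 0.21 in TAC+control. The sham mice had 0.43, 0.44 and 0.21 FPKM with the drug and 0.48, 0.35 and 0.40 without. Its TAC+pimobendan mice lay above the other 9, without a test. Rbm47, a cofactor of cytidine editing in gut, stayed between 0.04 and 0.24 FPKM. Rbm11, and the germ cell genes Rbm46 and Rbm44, stayed at or below 0.20 FPKM, and each was listed at 0 in at least 1 mouse, which may be a failed estimate.

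Rbm20 itself (NCBI Gene 73713; GRCm38.p6 chromosome 19, 53660989 to 53867083) was measured at 47.9, 46.1 and 43.2 FPKM in the Sham+control mice and at 44.7, 37.0 and 42.1 in Sham+pimobendan. After constriction it had 46.4, 45.5 and 46.3 FPKM with the drug, and 35.3, 38.4 and 42.9 without it. All 3 TAC+control mice lay below all Sham+control and all TAC+pimobendan mice, and the TAC+pimobendan mice lay closest together (46.1 ± 0.477 FPKM, SD, n = 3). TAC without drug gave a log2 fold change of FPKM + 1 of -0.23 ± 0.091 (SE; limma adjusted p = 0.561) and pimobendan after TAC gave 0.25 ± 0.091 (limma adjusted p = 0.113), and neither passed. These contrasts share the TAC+control mice with opposite sign. TAC under pimobendan stood at 0.16 (limma adjusted p = 0.317), pimobendan after sham at -0.15 (limma adjusted p = 0.91) and the interaction at 0.39 ± 0.13 (limma adjusted p = 0.126).

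The tested genes whose levels ran most like Rbm20 over the 12 libraries, by Pearson's r of log2(FPKM + 1), were Sobp (0.918), Cldn12 (0.903), Rab7b (0.894), Glcci1 (0.883) and Dnajb9 (0.88). Among them only Dnajb9, an endoplasmic reticulum chaperone, had a mean of 32.9 FPKM near that of Rbm20, the other 4 lying between 1.15 and 8.55 FPKM. The likeness is a description over 12 libraries from 4 groups, which also differ in the trends with GC content and transcript length given further on.

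Titin (Ttn), the best known target of RBM20, was measured as a gene total. The TAC+pimobendan mice had 34.3, 43.9 and 49.3 FPKM and the TAC+control mice 28.4, 30.8 and 26.1. After sham surgery the values were 28.6, 27.5 and 23.5 FPKM with the drug and 39.2, 30.1 and 30.1 without it. Its TAC+pimobendan mice lay above those of TAC+control and of Sham+pimobendan. Ttn rose with TAC under pimobendan by 0.65 ± 0.14 (log2; limma adjusted p = 0.0314), and its value for pimobendan after TAC was 0.55 ± 0.14 (limma adjusted p = 0.0502). Of the 24 genes listed as splicing targets of RBM20, 4 rose with TAC under pimobendan, where 4.64% of all genes were called higher: the thin-filament protein nexilin (Nexn, 1.36 ± 0.25), the calcium release protein triadin (Trdn, 1.38 ± 0.27), Ttn and the cytoskeletal linker Dst. With pimobendan after TAC 2 rose, Dst (0.60 ± 0.12) and Nexn (1.11 ± 0.25), where 3.15% of all genes were called higher. The list had a median log2 fold change of 0.13 in the first of these comparisons and 0.071 in the second, against -0.0061 and 0.095 for all genes. In TAC without drug, pimobendan after sham and the interaction limma called 0 of the 24. With pimobendan after TAC the calls of Dst and Nexn were each lost in 13 alternative settings (given at the end) and kept in 10. Those of Nexn, Trdn and Ttn with TAC under pimobendan were each lost in 9 and kept in 13.

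How these regulators stand under pressure overload alone was asked by setting TAC+control against Sham+control. No hnRNP or RBM gene passed the test. By limma 0 of 51 were higher and 0 lower at an adjusted p under 0.05, as for all 11415 genes (0.0%), and 2 of 51 had an unadjusted p under 0.05, against 8.33% of all genes. Log2 fold changes were negative for 36 of the 51, 18 of 20 Hnrnp and 18 of 31 Rbm genes, and for 7436 of all 11415 genes. The median of the 51 was -0.078 against -0.057 for all genes. Under median-ratio scaling, which moved the median of all genes by 0.063, 7 Hnrnp genes were positive in place of 2, and under a GC correction 6. The 3 smallest p values belonged to Rbm20, to Rbm34 at -0.25 ± 0.11 (limma adjusted p = 0.593) and to Hnrnpl at -0.21 ± 0.099 (limma adjusted p = 0.599). All TAC+control mice lay below all Sham+control mice for Rbm20 and Rbm34, 2 of 51, against 9.74% of all genes.

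Setting TAC+pimobendan against TAC+control asks for the effect of pimobendan in hearts under overload. By limma 3 RBM genes were higher with pimobendan and none was lower: the splicing factors Rbm25 and Rbm39, and Rbm34. That is 3 of 51, where 3.15% of all 11415 genes were higher and 0.114% lower. No Hnrnp gene passed, although all 20 had positive log2 fold changes; 17 were positive under median-ratio scaling and 13 under the GC correction. Over the 51 genes 42 were positive, as were 7531 of all 11415 genes. The median of the 51 was 0.23 against 0.095 for all genes, and 24 of 51 had an unadjusted p under 0.05, against 26.6% of all genes. Median-ratio scaling shifted the median of all genes by -0.10, and relative to the median of all genes the 51 stood at 0.14 as deposited and at 0.13 after that scaling.

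Rbm25 (NCBI Gene 67039; chromosome 12, 83632208 to 83683127), which binds exonic splicing enhancers and works with the particle that marks the donor splice site, had 10.9, 17.3 and 15.7 FPKM in TAC+pimobendan, against 6.83, 9.31 and 8.27 in the TAC+control mice. All 3 treated mice lay above the controls, the nearest being 10.9 against 9.31. It rose by 0.76 ± 0.16 (SE, log2; limma adjusted p = 0.0409). In the sham groups the order was the opposite, with 11.4, 10.03 and 8.93 FPKM in Sham+control above 8.43, 8.45 and 6.67 in Sham+pimobendan.

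Rbm39 (NCBI Gene 170791; chromosome 2, 156147239 to 156180238), a relative of the splicing factor that reads the polypyrimidine tract, had 28.8, 38.9 and 43.5 FPKM in TAC+pimobendan and 19.4, 25.9 and 23.7 in TAC+control. Again no control mouse reached a treated one. It rose by 0.66 ± 0.16 (limma adjusted p = 0.048). Rbm34 (NCBI Gene 52202; chromosome 8, 126947172 to 126971127) had 1.66, 1.79 and 1.56 FPKM against 0.84, 0.79 and 0.99, without overlap, and rose by 0.51 ± 0.11 (limma adjusted p = 0.043). Its level is near the filter of 1 FPKM, and the sham mice lay between, at 1.04 to 1.48 FPKM.

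**Figure D2:**
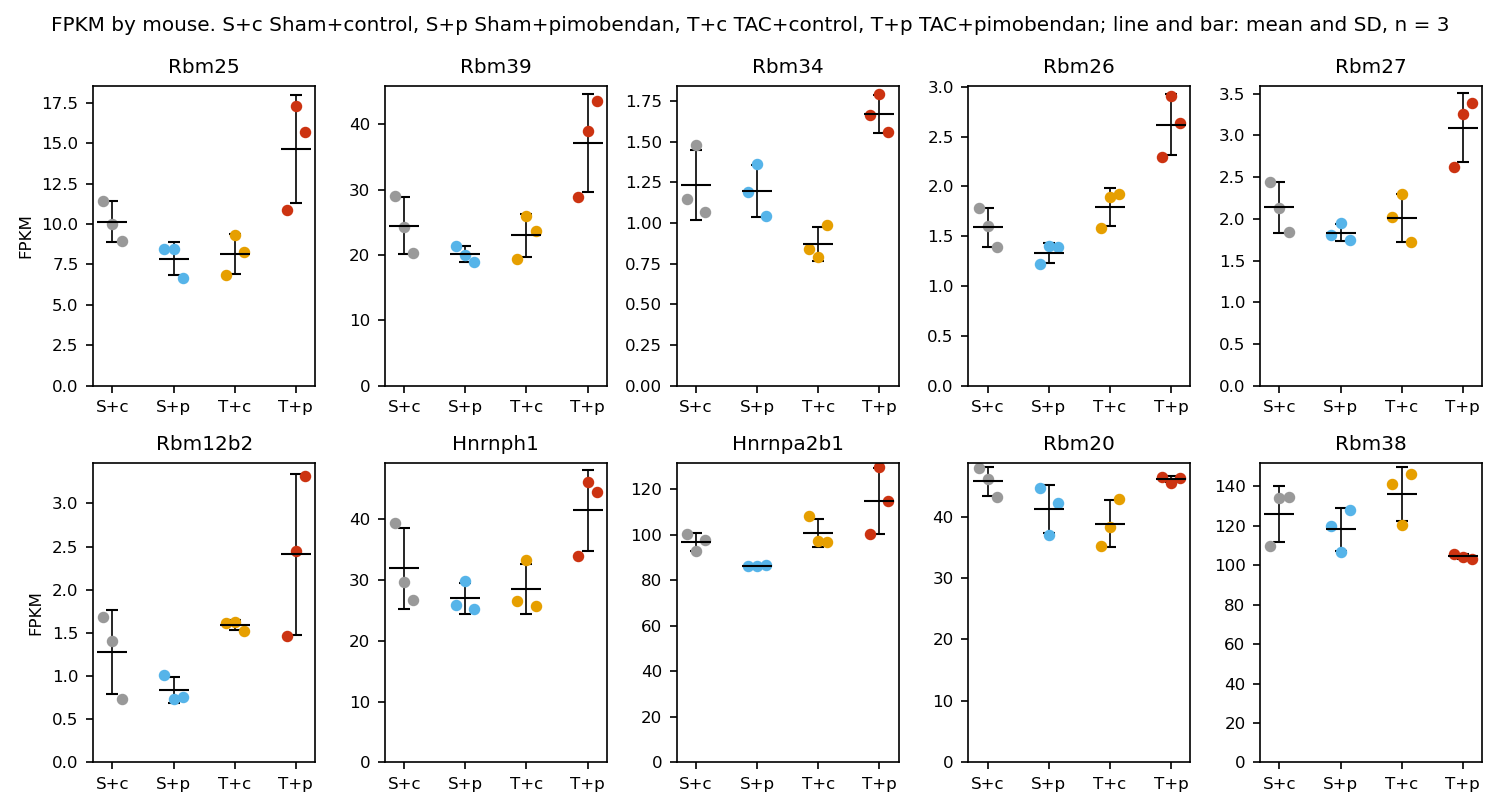
FPKM of 10 hnRNP and RBM genes in each mouse, by group (points), with the group mean and SD (line and bar, n = 3). For Rbm25, Rbm39 and Rbm34 every TAC+pimobendan point lies above every TAC+control point, and for Rbm38 every one lies below.

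The hnRNP genes with the smallest p stood close to the threshold. Hnrnpul2, a relative of the nuclear scaffold protein Hnrnpu, had 16.9, 17.8 and 18.8 FPKM in TAC+pimobendan against 14.2, 13.3 and 15.5 in TAC+control mice, a log2 fold change of 0.30 ± 0.083 (limma adjusted p = 0.0577). The A-type proteins, which silence exons, came next. Hnrnpa3 had 24.3, 32.1 and 32.9 FPKM against 17.2, 23.0 and 19.9 (0.55 ± 0.16, limma adjusted p = 0.0633). Hnrnpa1 had 52.8, 79.0 and 69.2 FPKM against 36.5, 50.0 and 48.6 (0.56 ± 0.17, limma adjusted p = 0.0659). The G-run binder Hnrnph1 stood at 0.52 ± 0.15 (limma adjusted p = 0.0663), Hnrnpdl at 0.57, Hnrnpu at 0.39, Hnrnpk at 0.29, Hnrnpa2b1 at 0.18 and Hnrnpl at 0.18. The groups did not overlap for 20 of the 51 genes with the treated mice higher, against 23.3% of all genes. Among these 20 were 11 Hnrnp genes.

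Some RBM genes ran the other way. Rbm38 (NCBI Gene 56190; chromosome 2, 173021891 to 173034734), the most abundant of the 51, had 106, 104 and 103 FPKM in TAC+pimobendan in contrast to 141, 120.4 and 146 in TAC+control mice. The groups had no overlap, with a difference of -0.37 ± 0.10 (log2; limma adjusted p = 0.0548). Its relative Rbm24 had 74.6, 78.4 and 65.04 FPKM against 51.3, 54.5 and 85.2 and overlapped (0.22 ± 0.18, limma adjusted p = 0.467). Rbm42 stood at -0.26 ± 0.099, but 92.3% of its 50-base stretches also occur in the gene model Gm21982, so its reads could be split. In all, 3 of the 51 (Rbm38, Rbm42 and Rbm14, a paraspeckle protein) had every treated mouse below every control, against 6.64% of all genes. Without Sham+control replicate 1, or without TAC+control replicate 2, Rbm38 passed as lower, where 42 and 23 of all 11415 genes did.

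Values per mouse follow for further hnRNPs of this comparison. Hnrnpk had 101, 112 and 109 FPKM in TAC+pimobendan against 75.9, 91.7 and 96.9 in TAC+control, and 91.9 to 104 FPKM in the 6 sham mice. The drug-treated constricted mice were above the untreated ones, and 1 TAC+control mouse was the lowest of all 12. Of the 50-base stretches of Hnrnpk 37.8% also occur in other annotated genes, and of those of Hnrnpa3 28.2%. Hnrnpl had 69.5, 73.6 and 73.9 FPKM against 59.1, 58.3 and 75.8, with overlap. Hnrnpu, which organises chromatin and binds nascent RNA, had 40.0, 48.6 and 56.4 FPKM against 38.8, 37.6 and 32.6. Its groups did not overlap, though the nearest mice were 40.0 and 38.8 FPKM. Hnrnpdl had 27.4, 35.8 and 33.2 FPKM against 15.3, 24.2 and 25.6, and Hnrnpd, which directs decay of AU-rich messages, 8.5, 9.81 and 8.4 FPKM against 6.42, 7.07 and 7.69.

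Rbm5, Rbm6, Rbm10 and Rbm4 are splicing regulators that did not pass here. Rbm5 had 24.5, 23.3 and 27.3 FPKM in TAC+pimobendan against 23.5, 18.6 and 17.9 in TAC+control (0.32 ± 0.11, limma adjusted p = 0.0964). Its relative Rbm6 had 8.20, 8.89 and 10.5 FPKM against 7.23, 6.69 and 5.37, without overlap (0.46 ± 0.14, limma adjusted p = 0.065). The third relative, Rbm10, scattered from 7.53 to 12.2 FPKM in these 6 mice and stood at 0.023 ± 0.20 (limma adjusted p = 0.954). Rbm4, which acts in alternative splicing and translation, had 7.35, 7.23 and 9.46 FPKM against 8.46, 8.71 and 7.73, and stood at -0.053 ± 0.13. Of its 50-base stretches 66.5% occur in other annotated genes, and for Rbm10 42.8%.

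Nor did Rbm8a, Rbm7, Rbm17, Rbm22, Rbm15 and Rbm15b pass. The exon junction protein Rbm8a had 12.8, 13.5 and 14.2 FPKM in TAC+pimobendan against 11.4, 13.2 and 12.2 in TAC+control, with overlap (0.13 ± 0.092, limma adjusted p = 0.401). Rbm7, of the nuclear exosome targeting complex, had 9.52, 10.8 and 11.2 FPKM against 7.77, 9.35 and 8.99, the nearest mice being 9.52 and 9.35 (0.25 ± 0.10, limma adjusted p = 0.16). Under the GC correction Rbm8a stood at -0.12 and Rbm7 at -0.15. The spliceosome proteins Rbm17 and Rbm22 stood at 0.026 ± 0.093 and -0.10 ± 0.10. The adenosine methylation guides Rbm15 and Rbm15b stood at -0.052 ± 0.18 and -0.25 ± 0.15.

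Rbm39 and Rbm38 stood on opposite sides in this comparison, and their start regions are shown for that reason. Each line gives the 250 bases before a RefSeq start (GRCm38.p6), chr2:156180239-156180488 on the minus strand for Rbm39 and chr2:173021652-173021901 on the plus strand for Rbm38. Rbm39 has 2 start windows, and the other is not shown. The Rbm38 window ends past 173021891, where the gene range given above begins. Capitals mark the CCAAT box, CCAAT or its complement ATTGG.
Rbm39: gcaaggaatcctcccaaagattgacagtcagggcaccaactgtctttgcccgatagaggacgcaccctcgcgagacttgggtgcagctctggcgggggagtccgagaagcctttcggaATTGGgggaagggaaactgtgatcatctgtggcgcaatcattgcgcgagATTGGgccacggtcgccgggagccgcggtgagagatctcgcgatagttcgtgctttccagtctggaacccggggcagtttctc
Rbm38: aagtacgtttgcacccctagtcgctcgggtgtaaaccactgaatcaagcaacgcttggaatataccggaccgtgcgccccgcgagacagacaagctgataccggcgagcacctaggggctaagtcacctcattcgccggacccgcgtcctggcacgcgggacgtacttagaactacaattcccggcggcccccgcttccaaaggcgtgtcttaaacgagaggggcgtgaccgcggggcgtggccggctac
The Rbm39 window holds 2 CCAAT boxes and the Rbm38 window 0, and neither holds a GC box (GGGCGG), an ETS core (CCGGAA) or a cAMP response element core (TGACGT) on either strand. RefSeq start windows (250 bases before to 50 after) were matched for 47 of the 56 genes, 61 windows in all, and compared with all 32851 windows of the table. CCAAT was in 50.8% of the windows of these genes and 37.4% of all windows, GGGCGG in 57.4% and 35.7%, CCGGAA in 29.5% and 14.9%, TGACGT in 21.3% and 7.51%, the E-box CACGTG in 14.8% and 7.15% and TATAAA in 11.5% and 13.6%. Both strands were searched, and a base may count for more than 1 motif. The windows of these genes had a median GC content of 61.0% and all windows 52.7%, and windows of a gene can overlap. The 2 sets were not matched for GC content or for expression in the heart.

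The count for pimobendan after TAC rested on which libraries entered the fit. It was 13 without TAC+pimobendan replicate 1, 5 without Sham+control replicate 1 and 1 without Sham+pimobendan replicate 1, where 9.60%, 5.41% and 1.31% of all genes were called higher. It was 2 without Sham+pimobendan replicate 3 or TAC+control replicate 2, where 2.15% and 3.38% of all genes were called higher. It was 0 without any of Sham+control replicate 2, Sham+pimobendan replicate 2, TAC+control replicates 1 and 3, and TAC+pimobendan replicates 2 and 3. In those fits 0 to 2 of all genes were called higher. With the replicate number as a block, limma called 0 of the 51 over all 12 libraries, and 1 of all genes. In a fit of the compared groups alone it called 5 (Hnrnpa1, Rbm39, Hnrnpa3, Hnrnpdl and Rbm25), where 2.89% of all genes were called higher.

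TAC+pimobendan was also compared with Sham+pimobendan, to ask what pressure overload does under the drug. By limma 7 of 51 genes were higher and 0 lower, where 4.64% of all genes were higher and 0.245% lower. They were the splicing factors Rbm25 and Rbm39, the exosome-linked pair Rbm26 and Rbm27, Rbm12b2, and 2 hnRNPs, Hnrnph1 and Hnrnpa2b1. Over the 51 genes 39 were positive, against 5589 of all 11415 genes. The median of the 51 was 0.16 against -0.0061 for all genes, and 23 had an unadjusted p under 0.05, against 22.9% of all genes.

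Rbm26 (NCBI Gene 74213; chromosome 14, 105106751 to 105181039) had 2.30, 2.91 and 2.64 FPKM in TAC+pimobendan and 1.22, 1.4 and 1.39 in Sham+pimobendan, and rose by 0.63 ± 0.11 (limma adjusted p = 0.0314). Its partner Rbm27 (NCBI Gene 225432; chromosome 18, 42275205 to 42341542) had 2.62, 3.26 and 3.39 FPKM against 1.81, 1.95 and 1.75, and rose by 0.52 ± 0.12 (limma adjusted p = 0.0352). In both genes the groups stood well apart, and the levels were low. Rbm39 had 21.4, 20.02 and 18.9 FPKM in Sham+pimobendan and rose by 0.83 ± 0.16 (limma adjusted p = 0.0314), and Rbm25 rose by 0.80 ± 0.16 (limma adjusted p = 0.0314).

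Rbm12b2 (NCBI Gene 77604; chromosome 4, 12089370 to 12105618) had 1.46, 2.45 and 3.32 FPKM in TAC+pimobendan and 1.01, 0.74 and 0.76 in Sham+pimobendan, and rose by 0.86 ± 0.20 (limma adjusted p = 0.0348). Of its 50-base stretches, 54.1% also occur in other genes, chiefly its neighbour Rbm12b1, so its reads could be split. Hnrnph1 (NCBI Gene 59013; chromosome 11, 50375257 to 50386528) had 33.8, 46.0 and 44.5 FPKM against 25.8, 29.8 and 25.2, and rose by 0.59 ± 0.15 (limma adjusted p = 0.0473). Hnrnpa2b1 (NCBI Gene 53379; chromosome 6, 51460434 to 51470048) had 101, 130 and 115 FPKM against 86.2, 86.5 and 86.8, and rose by 0.40 ± 0.089 (limma adjusted p = 0.0336). For all 7 the groups did not overlap, which held for 24 of the 51 genes with TAC+pimobendan higher, against 18.6% of all genes, and for 3 with it lower (Hnrnpa0, Rbm38 and Rbm42), against 9.35%.

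**Figure D3:**
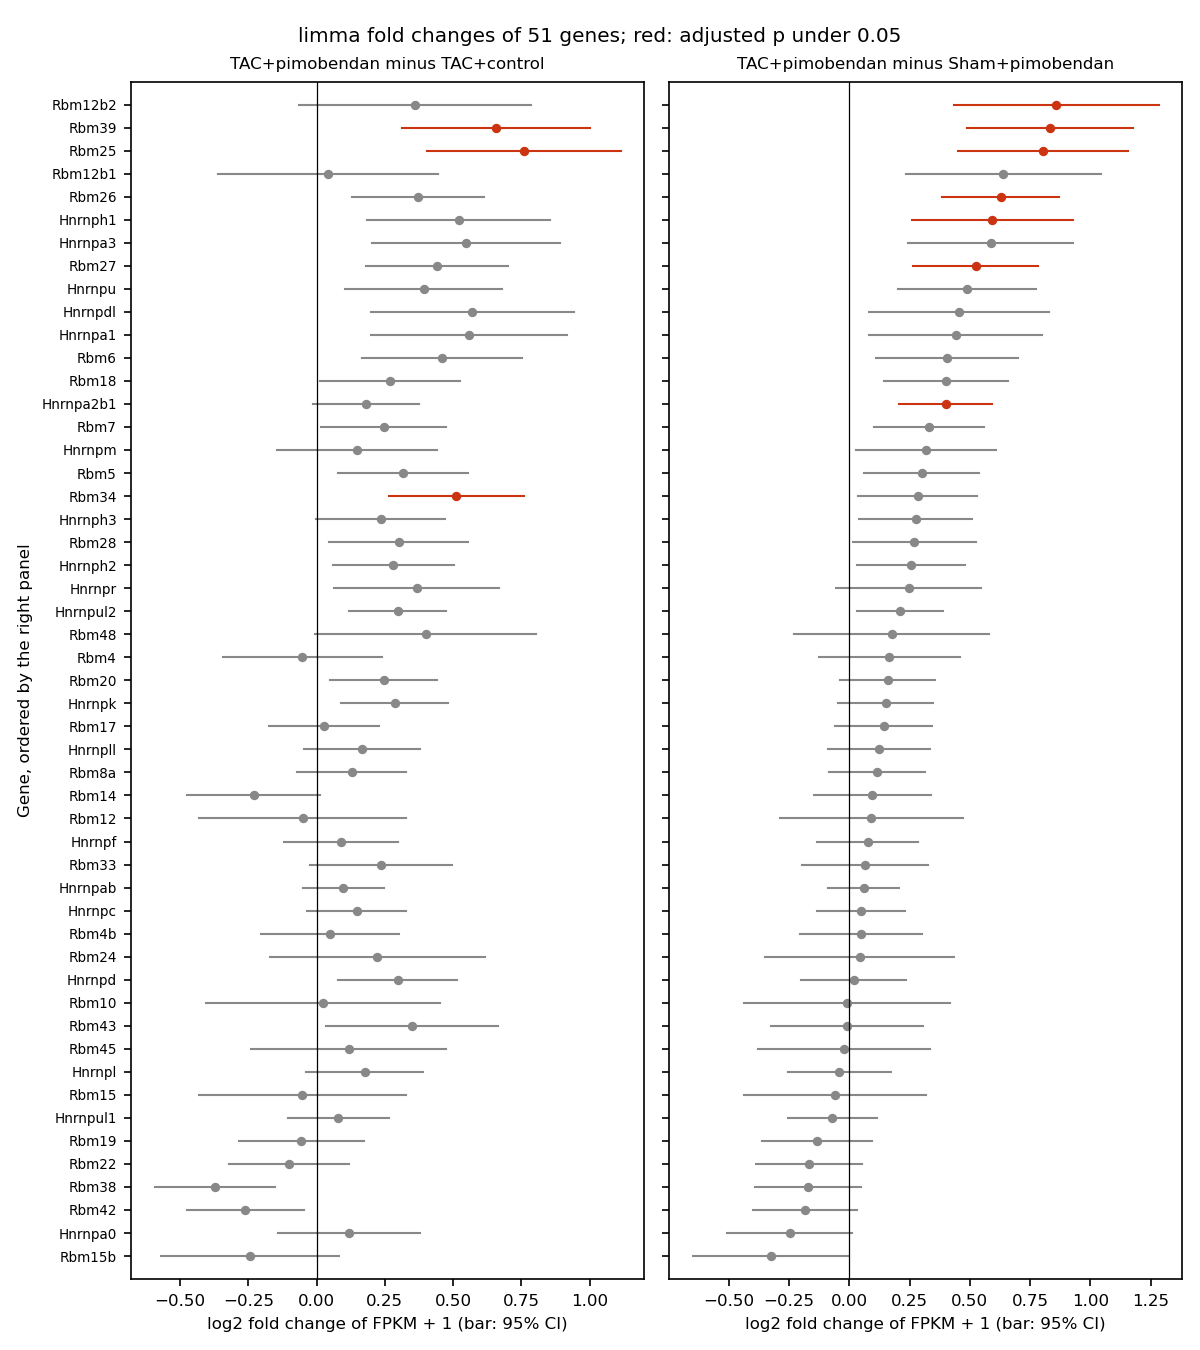
Log2 fold changes of FPKM + 1 with 95% confidence intervals for the 51 tested genes, TAC+pimobendan minus TAC+control (left) and TAC+pimobendan minus Sham+pimobendan (right), with genes past an adjusted p of 0.05 in red. Both panels share the TAC+pimobendan mice, and 3 genes are red on the left and 7 on the right.

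Just outside the threshold of this comparison were Hnrnpa3 (0.59 ± 0.16, limma adjusted p = 0.0516) and Hnrnpu (0.49 ± 0.13, limma adjusted p = 0.0521). Rbm34, which passed with pimobendan after TAC, stood at 0.28 ± 0.11 (limma adjusted p = 0.162). Here too the count moved with single libraries. It was 13 without TAC+pimobendan replicate 1 and 4 without Sham+pimobendan replicate 1, where 9.55% and 2.51% of all genes were called higher. It was 0 without TAC+pimobendan replicate 2 or 3 or Sham+pimobendan replicate 2 or 3, where 0 of all genes were called higher.

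Sham+pimobendan was compared with Sham+control to ask what the drug does without overload. By limma 0 of 51 genes passed in either direction, as for all genes (0.0%), and 1 of 51 had an unadjusted p under 0.05, against 4.54% of all genes. Fold changes were negative for 35 of the 51 and for 5290 of all 11415 genes, with medians of -0.080 and 0.013. The smallest p values belonged to Rbm17 (-0.22), Hnrnpa0 (0.25) and Rbm25 (-0.33 ± 0.16), each at a limma adjusted p of 0.91. Sham+pimobendan lay wholly below Sham+control in 3 of 51 genes, Rbm17, Rbm25 and Hnrnpa2b1, against 4.98% of all genes, and wholly above in Hnrnpa0, 1 of 51, against 6.16%.

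The interaction asks whether the TAC effect differed between mice with and without pimobendan, which equals asking whether the drug effect differed between TAC and sham. By limma 0 of 51 genes passed in either direction, as for all genes (0.0%), and 22 of 51 had an unadjusted p under 0.05, against 20.3% of all genes. The smallest p values were those of Rbm25 (1.09 ± 0.23) and Rbm39 (0.92 ± 0.22), both at a limma adjusted p of 0.0853, and Rbm6 (0.68 ± 0.19, limma adjusted p = 0.0949). Hnrnpa3 (0.75) and Hnrnph1 (0.74) lay above Rbm6 in size. Without TAC+pimobendan replicate 1, 10 of the 51 passed as higher, where 6.47% of all genes did. The difference between both drug effects on Rbm25 was thus not past the threshold with all 12 libraries.

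Shares within groups of close relatives show which member dominates. Of the summed FPKM of Rbm24 and Rbm38, Rbm38 made up 59.0% ± 2.16 (SD, n = 3) in TAC+pimobendan and 68.5% ± 5.08 in TAC+control, and 62.5% ± 4.29 in sham mice with the drug and 63.2% ± 4.72 in those without. Of the 4 genes of the H and F proteins, Hnrnpf held 45.7% ± 2.42 in TAC+pimobendan, 50.9% ± 3.70 in TAC+control, 51.9% ± 1.4 in Sham+pimobendan and 50.3% ± 2.17 in Sham+control. Hnrnph1 held 26.2% ± 2.67, 21.6% ± 3.63, 20.5% ± 0.923 and 22.3% ± 1.88 in the same order. These shares are given without a test. Of the scaffold-related genes, Hnrnpu held 47.2% ± 4.42 in TAC+pimobendan, 43.0% ± 3.77 in TAC+control, 39.0% ± 0.767 in Sham+pimobendan and 41.7% ± 4.06 in Sham+control. Rbm12b2 held 25.7% ± 3.63, 19.0% ± 0.940, 14.1% ± 0.890 and 17.3% ± 4.72 of its sum with Rbm12 and Rbm12b1, in that order of groups. Rbm5 made up most of its sum with Rbm6 and Rbm10, with group means of 52.1% to 56.7%. Hnrnpl outweighed Hnrnpll throughout, with 87.2% to 90.4% of their sum in single mice. Hnrnpa2b1 held between 47.0% and 61.3% of the sum of the 4 A-type genes. Shares of Hnrnpf and Hnrnpa1 are uncertain, since 67.3% and 46.4% of their 50-base stretches also occur in other annotated genes, most of them predicted ones. The share of Rbm12b2 is uncertain too. Of the stretches of Rbm12b1 63.1% are shared, and of those of Rbm12b2 54.1%, in each case chiefly with the other. For Rbm10 42.8% and for Rbm12 32.6% occur in other genes. Relatives also differ in transcript GC content, with which the libraries have trends, given further on. It is 50.2% for Rbm24, 61.3% for Rbm38, 49.0% for Hnrnpf, 45.4% for Hnrnph1, 41.0% for Hnrnph2 and 44.1% for Hnrnph3. Hnrnpu has 40.9%, Hnrnpul1 54.0% and Hnrnpul2 49.5%, and Rbm12b2 has 40.9%, Rbm12 42.0% and Rbm12b1 43.5%. The part of GC content in these shares was not tested.

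Other RNA regulators were counted from lists of their own, to be read against the 3.15% of all genes called higher with pimobendan after TAC and the 4.64% with TAC under pimobendan. The median log2 fold change of all genes was 0.095 in the first comparison and -0.0061 in the second. Of 43 splicing regulators with other names, 3 rose with pimobendan after TAC, Celf2 (0.52 ± 0.11), Tia1 (0.59 ± 0.13) and Mbnl1 (0.60 ± 0.15), with a list median of 0.18. With TAC under pimobendan 7 rose, among them the nuclear matrix protein Matr3 (1.17 ± 0.25), Mbnl1 (0.75 ± 0.15), a muscleblind regulator of the fetal to adult splicing switch, and Tia1 (0.58 ± 0.13), with a median of 0.11. Of 49 genes of the exon junction complex and core spliceosome, 2 rose with pimobendan after TAC, Luc7l2 (0.60 ± 0.14) and Sap18 (0.38 ± 0.092), with a median of 0.091. With TAC under pimobendan 8 rose, among them Luc7l2 (0.74 ± 0.14), Luc7l3 (1.17 ± 0.23) and Prpf38b (0.70 ± 0.15), with a median of 0.066. None of these genes was lower in either comparison, and limma called 0 of them in the other 3 comparisons, where it called no gene of the table. For pimobendan after TAC, alternative settings (given at the end) lost the call in 20 cases for Sap18, 17 for Mbnl1, 16 for Luc7l2, 15 for Tia1 and 14 for Celf2. They kept it in 3, 6, 7, 8 and 9. For TAC under pimobendan the genes named lost it in 9 or 10 and kept it in 12 or 13.

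Base composition moved with these results. The 51 genes had a median transcript GC content of 46.4% (Hnrnp 45.3%, Rbm 48.1%), from 39.4% to 61.5%, against 50.5% for all genes tested, and 39 lay below that value. Across the 51 genes, Spearman's rho between GC content and log2 fold change was -0.63 for pimobendan after TAC and -0.69 for TAC under pimobendan, against -0.50 and -0.64 across all genes. These are correlations across genes, which are not independent. Rbm25, Rbm39 and Rbm34 have a GC content of 42.1%, 43.2% and 42.5%, while Rbm38 and Rbm42, both negative, have 61.3% and 61.5%. Rbm20 has 54.9%.

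**Figure D4:**
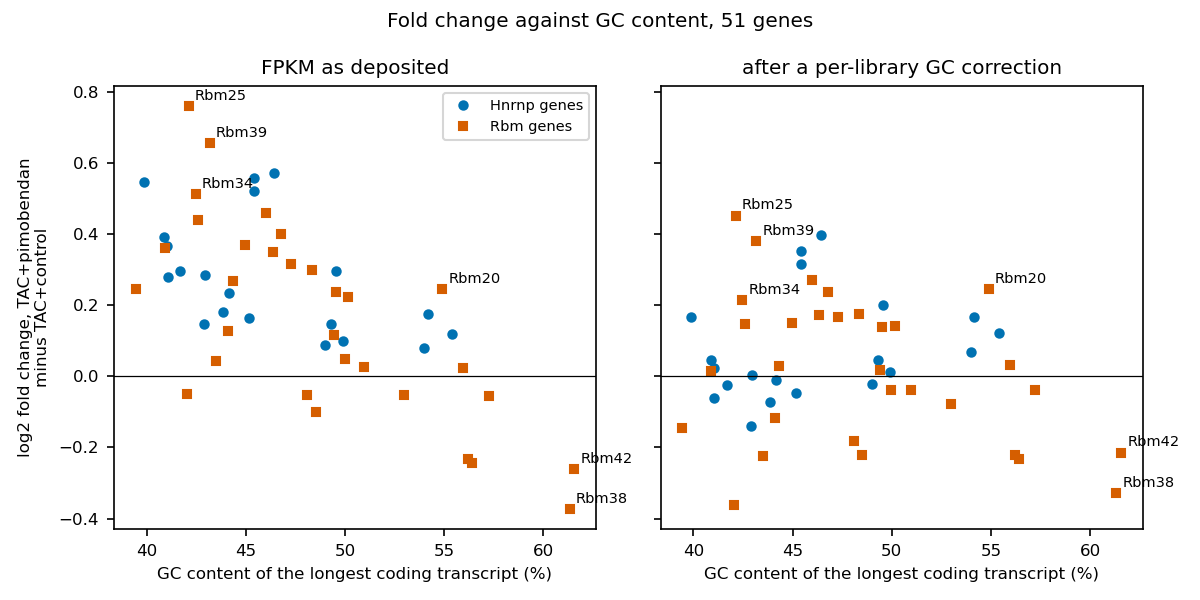
Log2 fold change of TAC+pimobendan minus TAC+control against the GC content of the longest coding transcript for 51 hnRNP and RBM genes, from FPKM as deposited (left) and after a GC correction of each library (right). The downward slope on the left (Spearman's rho -0.63) is -0.11 on the right, and Rbm25 stays the highest point in both.

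Genes of like GC content gave a closer comparison. Among genes of 40 to 45% GC, the median for pimobendan after TAC was 0.29 for 18 of the 51 and 0.29 for all 1978 genes. Among genes of 45 to 50% GC it was 0.27 for 18 of the 51 and 0.14 for all 2911 genes. After a GC correction of each library, limma called 0 of the 51 in both comparisons with TAC+pimobendan, and 0 of all genes. Rbm25 then stood at 0.45 ± 0.12 for pimobendan after TAC (limma adjusted p = 0.108), Rbm39 at 0.38 ± 0.12, Rbm34 at 0.21 and Rbm38 at -0.33 ± 0.10, while Rbm20 stood at 0.24. For TAC under pimobendan Rbm39 stood at 0.56 ± 0.12 and Rbm26 at 0.43 ± 0.096 (limma adjusted p = 0.105 for both), and Rbm25 at 0.48 ± 0.12 (limma adjusted p = 0.118). Rbm27, also called there as deposited, fell to 0.23. The value of Rbm20 was nearly unchanged, and each of the others was smaller in size than as deposited. The median of the 51 became 0.024 and 0.048.

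Libraries of the same group differed in this GC trend. For each library, the deviation of every gene from its 12-library mean was set against GC content, and Spearman's rho was -0.21, -0.522 and -0.541 in TAC+pimobendan replicates 1, 2 and 3. The median deviation of the 51 genes was 0.054, 0.20 and 0.16 there, against 0.048, 0.024 and 0.020 for all genes. The other 9 libraries had medians between -0.12 and 0.065 for the 51 genes. The highest of them, 0.065, was Sham+control replicate 1, whose rho of -0.359 was also the lowest of the 9, and the lowest median was that of Sham+pimobendan replicate 3, with the highest rho of 0.545. The deviation also had a trend with transcript length, with a rho of 0.231, 0.181 and 0.275 in TAC+pimobendan and of -0.102, -0.265 and -0.127 in TAC+control. It was 0.330 in Sham+control replicate 1 and below 0 in the other 5 sham libraries. The part of transcript length in these results was not tested.

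**Figure D5:**
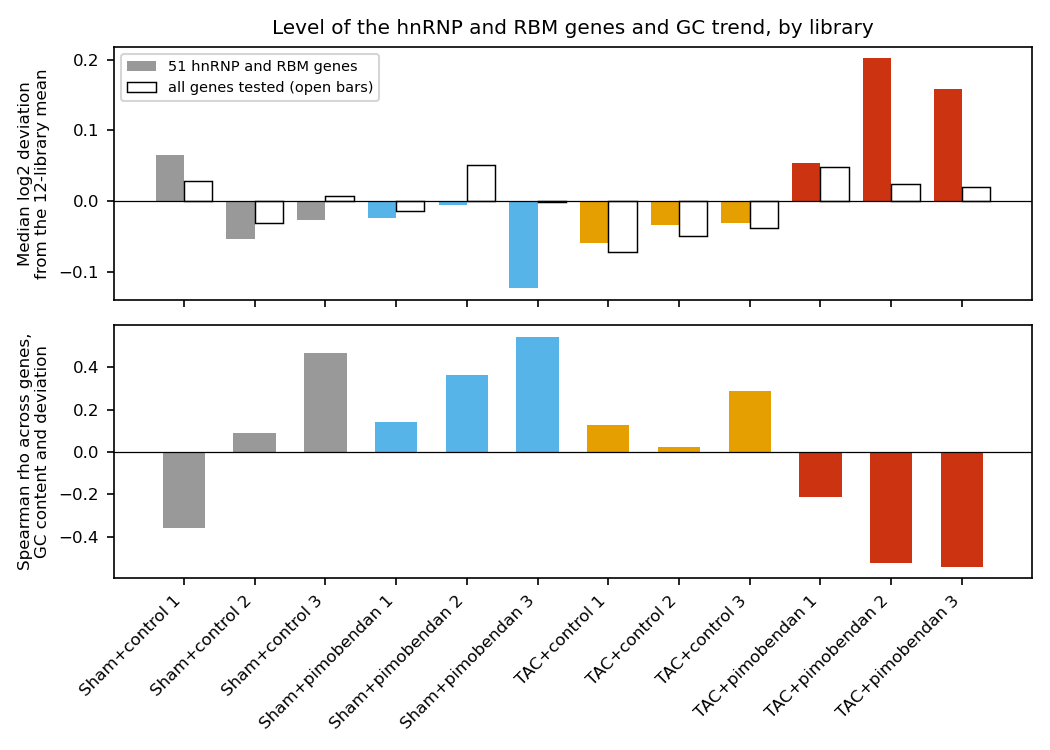
Top: median log2 deviation from the mean of 12 libraries of the 51 hnRNP and RBM genes (coloured bars) and of all tested genes (open bars), by library. Bottom: Spearman's rho of the same deviation with GC content, over genes. TAC+pimobendan replicates 2 and 3 have the highest bars in the top panel (0.20 and 0.16) and the lowest in the bottom panel (-0.522 and -0.541).

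Markers of cell types moved in both comparisons with TAC+pimobendan. With pimobendan after TAC 4 of 10 cardiomyocyte markers were positive, with 1 called higher and 1 called lower. Their sums were 70816 to 75483 FPKM in TAC+control and lower, 60635 to 69369 FPKM, in TAC+pimobendan. The 9 macrophage markers were all positive and 1 was called, with summed levels of 199.8 to 226 FPKM in TAC+control and 216 to 279 FPKM in TAC+pimobendan. The 7 tested erythroid markers were all negative with 1 called, and the 8 listed summed to 4213 to 6721 FPKM in TAC+control and 1154 to 2295 FPKM in TAC+pimobendan. Fibroblast markers summed to 336 to 422 FPKM and 424 to 489 FPKM in the same groups, with 5 of 7 positive and 0 called. With TAC under pimobendan 2 of 7 endothelial markers were positive and 2 were called lower, with sums of 337 to 468 FPKM in Sham+pimobendan and 312 to 361 FPKM in TAC+pimobendan. Of 5 smooth muscle markers 0 were positive and 1 was called lower, with sums of 158 to 256 FPKM and 68.0 to 119 FPKM. The 7 tested erythroid markers were all positive with 0 called, the 8 summing to 462 to 1917 FPKM in Sham+pimobendan. Of 10 cardiomyocyte markers 6 were positive, and 2 were called higher, 1 of them Ttn. Their sums overlapped, with 62114 to 68247 FPKM in Sham+pimobendan and 60635 to 69369 FPKM in TAC+pimobendan. The part of these cells in the values of the hnRNP and RBM genes was not tested.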

How the data were processed

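RNA-seq libraries (oligo(dT)-selected, per the labels' protocols) came from 12 left ventricles, 3 mice per group. The authors deposited 1 table with FPKM and TPM for each gene and mouse, without counts. Per the submitters' processing notes, which give no roles, the tools were RSEM 1.2.12, HISAT2 2.0.4, DESeq2 1.4.5 and Bowtie2 2.2.5 on build GRCm38. The hnRNP and RBM genes and the other lists were chosen with earlier results of these data known.

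Log2(FPKM + 1) was fitted with limma 3.58.1 (R 4.3.3; trended variances, 1 mean per group, all 12 libraries, 8 residual degrees of freedom) for the 11415 of 17052 genes that reached 1 FPKM in 3 or more libraries. Benjamini-Hochberg adjustment ran over all of these, with a threshold of 0.05. The deposited TPM served as an alternative. Called genes, or the 3 with the smallest p where none was called, were named, with a fixed set that includes Rbm20, the 5 highest and the 5 lowest genes. Further members were chosen after their values were seen: those near the threshold, Rbm42, Rbm14 and those described by role. GC content is that of the longest coding transcript (available for 11334 tested genes), and coordinates and start windows are from RefSeq. The fit was tested on simulated data.

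Replicate numbers are not said to mark a shared batch. Deviations of same-numbered libraries correlated between 0.101 and 0.208 across genes for TAC+control and TAC+pimobendan, over 0.1 in all 3 pairs, so blocked values are given for that comparison. For the other pairs of groups the values ran from -0.44 to 0.253.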

Additional observations from a re-analysis of the deposited data

How the results depend on the processing

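Without counts the depth behind a value is unknown, and genes near 1 FPKM, such as Rbm34, Rbm26 and Rbm12b2, are the least certain. With 3 mice per group, limma calls of these genes sat near the threshold and depended on single libraries.

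For pimobendan after TAC, 3 genes were called higher. The count was 0 under median-ratio scaling, with no filter on low values, with only the compared groups, under the GC correction with or without the replicate block, and under quantile normalization (added after seeing the data). In each of these settings limma called 0 of all genes higher. It was 13 on TPM, where 9.54% of all genes were called higher. For TAC under pimobendan, 7 genes were called higher. The count was 0 with no filter, with only the compared groups and under the GC correction with or without the block. In each of these settings too, limma called 0 of all genes higher. It was 11 on TPM and 4 under quantile normalization, where 5.95% and 2.40% of all genes were called higher. The causes were not tested. Leaving out 1 library at a time gave 0 to 13 genes higher in each of these comparisons, 0 to 1 lower for pimobendan after TAC and 0 to 10 higher for the interaction. The counts of 0 for TAC without drug and for pimobendan after sham held under all these settings.

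The replicate number as a block gave 0 called higher in both comparisons with all 12 libraries. Of all genes, 1 was called higher there for pimobendan after TAC and 0 for TAC under pimobendan. A fit of the 2 groups of pimobendan after TAC (added after seeing the data) gave 5, where 2.89% of all genes were called higher. Over all 12 libraries the block changed no count of 0 in the other comparisons.

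Signs turned in 11 of the named values, 5 of them under 0.1 in size. With 1 library left out, Rbm39 in TAC without drug (-0.084) ran from -0.21 to 0.041, turning without Sham+control replicate 1 (0.041) or TAC+control replicate 1 (0.030). Under the GC correction, with or without the block, pimobendan after TAC became -0.072 for Hnrnpa2b1, -0.12 for Rbm8a, -0.15 for Rbm7 and -0.038 for Rbm17, and TAC under pimobendan became -0.020 for Rbm34, -0.10 for Rbm7 and -0.13 for Hnrnpk. Small values for pimobendan after TAC also turned elsewhere. Median-ratio scaling gave -0.086 for Rbm10 and -0.088 for Rbm17, quantile normalization -0.096 and -0.030, and TPM 0.014 for Rbm4. Leaving out 1 library gave -0.13 to 0.16 for Rbm10, -0.16 to 0.0085 for Rbm4, -0.019 to 0.074 for Rbm17 and -0.20 to 0.091 for Rbm15. A fold change counted as the same if it kept its direction and side of the threshold, and a count or median if it stayed within a set margin. Over all values and settings, 2073 were the same, 311 lost the call, 49 gained one, 51 counts or medians moved and 28 turned.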
